A study of Danio rerio with 3 samples.

Results

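The pancreatic digestive enzymes described here were 10 zebrafish genes, namely the trypsins *prss1* and *prss59.1*, the chymotrypsin *ctrb1*, the elastases *ela2*, *ela2l*, and *ela3l*, the carboxypeptidases *cpa1*, *cpa4*, and *cpa5*, and the amylase *amy2a*. They were found by their symbols, through the RefSeq accession that each probe of the array carries. All 10 genes were measured, by 20 of the 43603 probes, and they are 10 of the 28287 genes that the probes stand for. The table of names used here calls *ctrb1* by the symbol ctrb.1. Of the genes, 1 (*amy2a*) had 1 probe, 8 had 2 probes, and 1 (*ela2l*) had 3 probes.

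The RNA came from liver of AB strain zebrafish larvae, and 1 single-colour Agilent array was hybridized for each of 3 groups. From 5 dpf (days post-fertilization), larvae of the control group received the feed AP100 at 30 mg for 100 fish a day for 10 days, up to 15 dpf. Larvae of the HCD (high-cholesterol diet) group received 180 mg of AP100 a day per 100 fish with 4% cholesterol, so that both the amount of feed and the cholesterol set this group apart from control. Larvae of the BBR group received the HCD together with berberine (BBR) at 5 μM. BBR is a plant alkaloid, and the comparison of the BBR and HCD arrays asks what it does to livers of larvae on the diet. Control and BBR shared a slide, while HCD was hybridized on a different one, so a difference from HCD cannot be told apart from one between slides. How many larvae were pooled for an array is not given in the sources used here. No replicate arrays were analysed here, so no difference below has a replicate check, no P value was computed, and the number of arrays limits every value.

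Acinar cells of the exocrine pancreas make digestive enzymes and store them in zymogen granules. Trypsin, chymotrypsin, elastase, and carboxypeptidase are secreted as inactive precursors and are activated in the gut, where trypsin activates the others, whereas amylase is secreted in active form. Hepatocytes are not known as a source of these enzymes. In zebrafish larvae the pancreas lies beside the liver and the anterior gut, and the promoter of *ela3l* is widely used to mark its acinar cells.

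On all 3 arrays each of the 20 probes was well above background, and none was marked as saturated. None of the 43803 spots of an array carried the saturation mark, so it does not set the members apart. Levels are given as the processed intensity that the scanner software wrote and as its log2 value minus the 75th percentile of that array. On the second scale, the lowest of the 60 values was 2.37 and the highest was 5.88, so even the dimmest reading lay above the 75th percentile of its array. Of the arrays, HCD gave the lowest level at 13 of the 20 probes, BBR at 5, and control at 2. Among the 15 probes without an outlier mark on any array, HCD was lowest at 9, while over the 35413 probes that were well above background on all 3 arrays it was lowest at 47.6%. This order depended on the scaling, among the members as over all probes. HCD was lowest at 6 of the 15 probes under median scaling or cyclic loess, beside 35.9% and 34.3% of all probes. It was lowest at 5 under quantile normalization, with or without normexp, beside 34.6% and 35.4%.

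**Figure D1:**
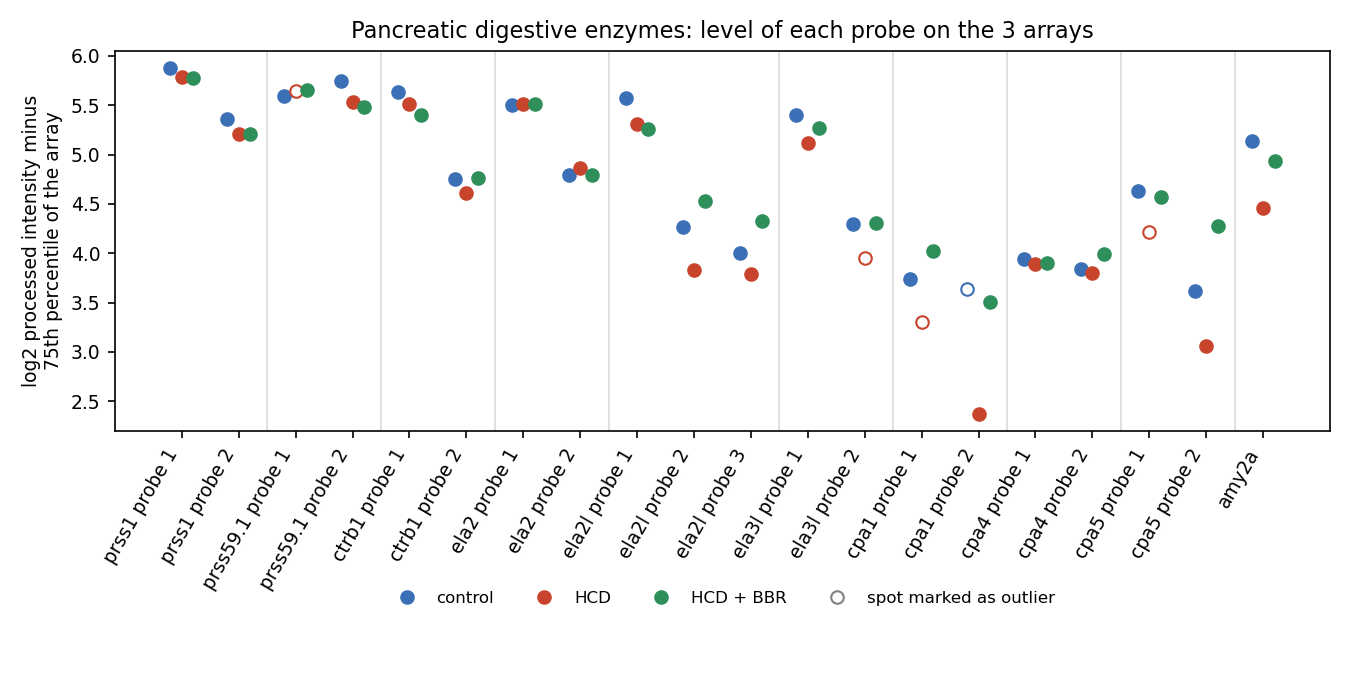
Level of each of the 20 probes (x axis, by gene) on the control, HCD, and HCD plus BBR arrays, on the log2 scale relative to the array's own 75th percentile (y axis). Each point is 1 array, and open points are spots that the scanner software marked as outliers. The 3 points of the brighter *ela2* probe lie within 0.01 of each other, while the HCD point of *cpa1* probe 2 lies at 2.37 and that of control, an outlier spot, at 3.63.

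The trypsins, which cut beside basic residues, spanned up to 0.26 log2 units over the arrays. The brighter probe of *prss1* read 118162 in control, 111592 in HCD, and 117601 in BBR. On the scaled log2 values these are differences of -0.09 for HCD against control and -0.01 for BBR against HCD. The second probe of *prss1* gave -0.16 and 0.00. For *prss59.1*, a second trypsin, the probe without an outlier mark read 107866, 93445, and 95899 for control, HCD, and BBR. Its differences were -0.22 for HCD against control and -0.05 for BBR against HCD. The other probe of *prss59.1* was marked as an outlier on the HCD array, and its difference between BBR and control was 0.06, against -0.26 at the first probe.

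The chymotrypsin *ctrb1*, a serine protease that cuts beside aromatic residues, read 99577, 92400, and 90658 for control, HCD, and BBR at its brighter probe. Its dimmer probe read 54267, 49563, and 58161. Both probes placed HCD below control, by -0.12 and -0.14 log2 units, but they gave opposite signs for BBR against HCD, at -0.11 and 0.15. None of these exceeded 0.26 for HCD against control or 0.20 for BBR against HCD. These are the SDs of a log2 difference that the spread between spots of 1 probe on an array gives, from 41, 40, and 46 probes printed in several copies for control, HCD, and BBR. This SD covers printing and scanning, and not the animals or the RNA extraction.

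Of all member probes, the brighter probe of *ela2* varied least, with 90946 in control, 92135 in HCD, and 97849 in BBR, which after scaling span 0.01 log2 units. Its other probe spanned 0.07. The gene *ela2l*, which lies directly beside *ela2* in the reference annotation, behaved differently between its own probes. Its brightest probe (A_15_P189296) read 95410, 80240, and 82131 for control, HCD, and BBR, with differences of -0.26 for HCD against control and -0.05 for BBR against HCD. A dimmer probe (A_15_P170501) read 38797, 28761, and 49583, with differences of -0.44 and 0.70. The dimmest probe (A_15_P656136) read 32296, 27946, and 43037, with differences of -0.22 and 0.54. All 3 placed HCD below control, but BBR was below control by -0.31 at the brightest probe and above it by 0.26 and 0.32 at the others, so the order of BBR and control for *ela2l* depended on the probe.

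For *ela3l*, the probe without an outlier mark read 84728, 70247, and 82915 for control, HCD, and BBR. HCD differed from control by -0.28, and BBR from HCD by 0.16. The other probe was marked as an outlier on the HCD array, where it gave -0.35 and 0.36 if the spot was kept.

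The carboxypeptidases remove residues from the C-terminal end of the peptides that the endopeptidases leave, and they held the only member genes that differed at least 2-fold in any comparison. For *cpa1*, the dimmer probe (A_15_P100059) read 24962 in control, 10479 in HCD, and 24308 in BBR. BBR was 2.19-fold higher than HCD (log2 difference 1.13). The control spot of this probe was marked as an outlier, and if it was kept HCD was 2.40-fold lower than control, a difference of -1.26 log2 units. The brighter probe of *cpa1* (A_15_P755376) read 26886, 20004, and 34851, and here the HCD spot was the one marked as an outlier. With that spot kept, BBR was 1.64-fold higher than HCD and control 1.35-fold higher than HCD. No probe of *cpa1* therefore gave a difference between HCD and control without a marked spot. BBR differed from control by 0.28 at the brighter probe and, with the marked control spot kept, by -0.13 at the dimmer one.

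The gene *cpa5* lies directly beside *cpa1* in the annotation and is used in zebrafish as a marker of acinar cells. Its dimmer probe (A_15_P117784) also read lowest in HCD, but it placed BBR above control. This probe carried no outlier mark and read 24724 in control, 16931 in HCD, and 41595 in BBR. BBR was 2.32-fold higher than HCD and 1.58-fold higher than control (log2 differences 1.21 and 0.66), and HCD differed from control by -0.56. At the brighter probe (A_15_P116208) the values were 49827, 37546, and 50953. With its HCD spot, marked as an outlier, BBR was 1.28-fold higher than HCD, and BBR differed from control by -0.06. The 2 probes of *cpa5* thus both placed HCD lowest but differed in whether BBR exceeded control.

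By contrast, *cpa4*, a gene of the same family that lies 46 protein-coding genes from *cpa1*, differed little. Its probes read 30816, 30103, and 32116 for control, HCD, and BBR, and 28838, 28134, and 34018. The log2 differences were -0.04 and -0.05 for HCD against control, and 0.01 and 0.19 for BBR against HCD. Their sign for HCD turned with the scaling, to 0.07 under quantile normalization and 0.06 under cyclic loess for the brighter probe.

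Amylase breaks down starch. The only probe of *amy2a* read 70726 in control, 44533 in HCD, and 65745 in BBR, or 35.2, 22.0, and 30.7 times the 75th percentile. HCD differed from control by -0.68, the largest difference between these arrays among the 15 member probes without an outlier mark on either. BBR was 1.39-fold higher than HCD (0.48) and differed from control by -0.20. No second probe carried the accession of this gene.

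**Figure D2:**
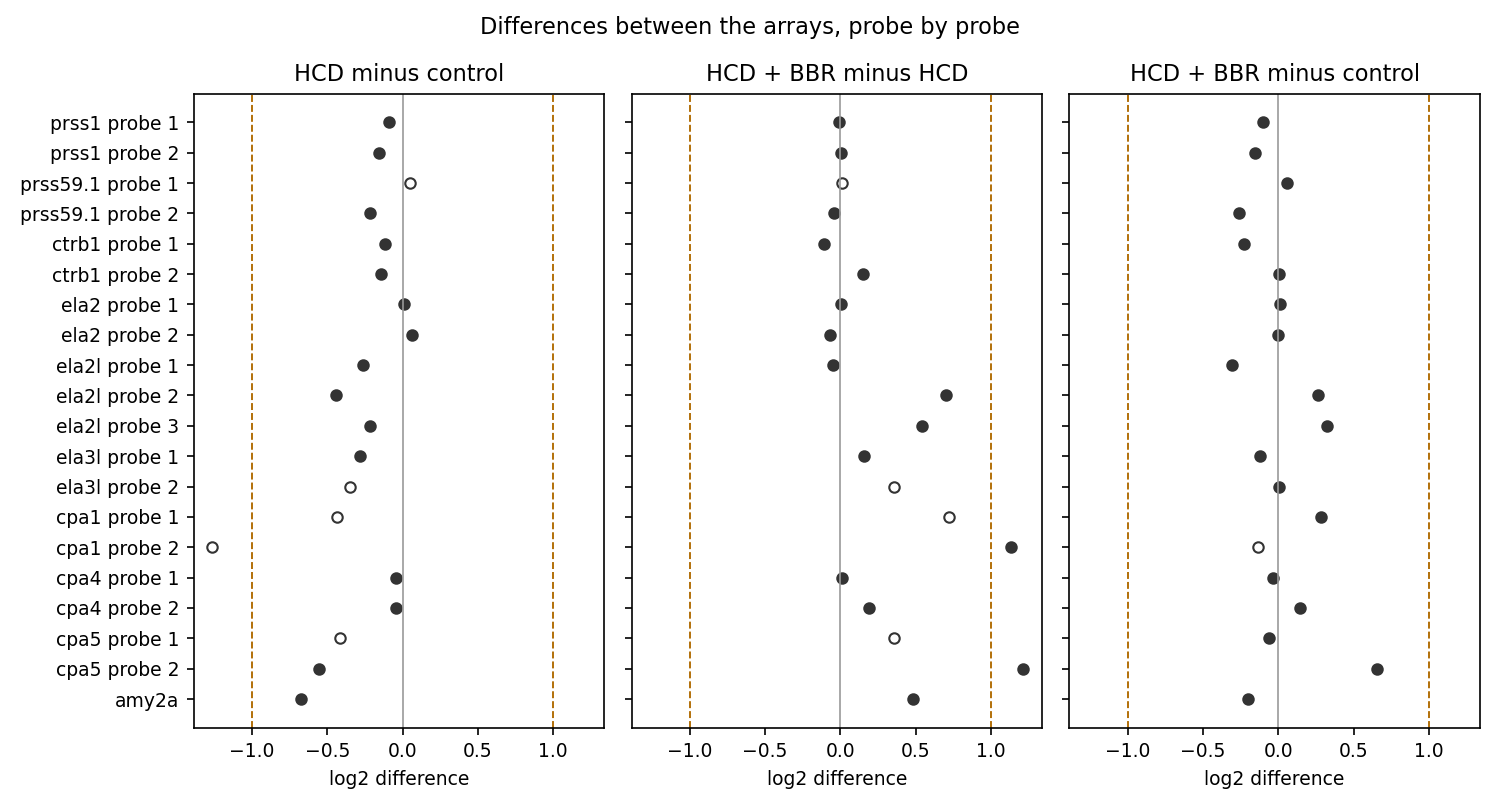
Log2 difference of each probe (x axis) for HCD minus control, HCD plus BBR minus HCD, and HCD plus BBR minus control, with 1 point per probe, open where a spot was marked as an outlier. Dashed lines mark 2-fold, passed between BBR and HCD by *cpa1* probe 2 at 1.13 and *cpa5* probe 2 at 1.21, and between HCD and control by the marked value of -1.26.

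Each gene was then represented by its brightest probe among those without an outlier mark, and the 2-fold threshold of the study was applied. Between HCD and control, none of the 9 member genes with a value was at least 2-fold higher in HCD or at least 2-fold lower, where 3.69% and 4.68% of the 24568 genes measured on these arrays were. Their median log2 difference was -0.22, with values from -0.68 to 0.01, beside a median of -0.16 over all genes. Between BBR and HCD, 2 of the 10 member genes, *cpa1* and *cpa5*, were at least 2-fold higher in BBR, where 5.36% of all genes were. None was at least 2-fold lower, where 1.38% of all genes were. The median of the members was 0.01, with values from -0.11 to 1.21, beside a median of 0.11 over all genes. Between BBR and control, which lay on the same slide, none of the 10 members was at least 2-fold higher or lower in BBR, where 3.95% and 1.36% of all genes were, and the median was -0.11, beside -0.03. After cyclic loess, the genes past 2-fold were split into 1319 higher and 497 lower in HCD than in control, in place of 906 and 1149, and into 707 higher and 594 lower in BBR than in HCD, in place of 1364 and 352. Relative to all genes, the member medians were -0.06, -0.10, and -0.08 for the 3 comparisons, and under quantile normalization they turned to 0.02, 0.02, and 0.04. The comparisons share arrays, and their values are therefore not independent of each other.

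The 2 calls rested on which probe stood for the gene. When the marked spots were kept, the brighter probes of *cpa1* and *cpa5* took the place of the dimmer ones, the log2 differences of BBR from HCD were 0.72 and 0.36, and none of the 10 members differed at least 2-fold. With the marked spots kept and the dimmest probe of each gene used, an alternative added after the data were seen, the values were again 1.13 and 1.21. They could not differ, because the same probes stood for both genes and neither had a marked HCD or BBR spot. Both differences stayed positive under each alternative that gave a value, from 0.72 to 1.21 for *cpa1* and from 0.36 to 1.21 for *cpa5*. Likewise, the gene values of *amy2a*, *cpa5*, and *ela2l* for HCD against control were negative under each alternative that gave them. The sign of *prss1*, *prss59.1*, *ctrb1*, *cpa4*, and *ela3l* in that comparison turned positive under between 1 and 4 alternatives each, and that of *ela2* was positive under each. Counted by probe, 5 of 15 probes lay beyond the spot SD between HCD and control, all lower in HCD, where 41.9% of all 37113 measured probes were lower and 20.8% higher by more than this SD. Between BBR and HCD, 5 of 16 lay beyond it, all higher in BBR, where 43.1% of all probes were higher and 20.7% lower. Between BBR and control, 4 of 19 were higher and 3 lower, beside 28.4% and 30.8% of all probes.

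**Figure D3:**
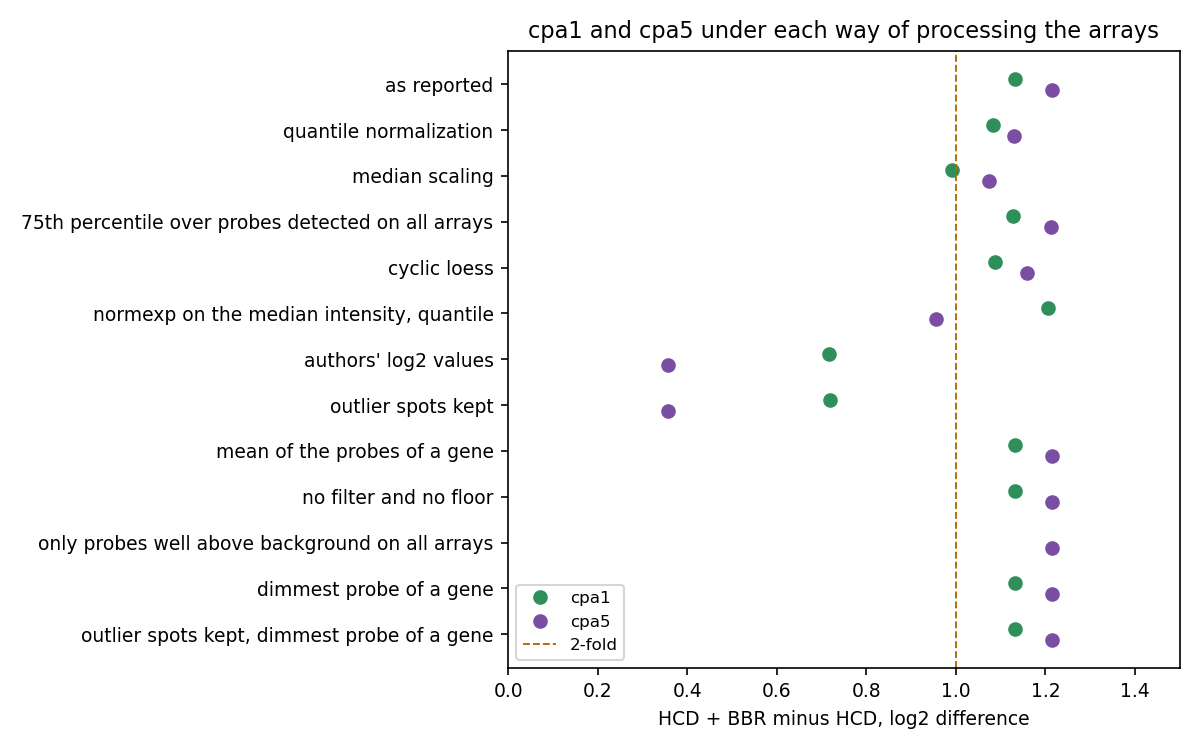
Log2 difference between the HCD plus BBR and HCD arrays (x axis) for *cpa1* and *cpa5* under each way of processing the arrays that bears on their values (y axis), with the 2-fold line dashed. The values are 0.72 and 0.36 when spots marked as outliers are kept, and *cpa1* has no point where only probes well above background and unmarked on all 3 arrays were used.

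Across the member probes, the difference between BBR and HCD went with the level of the probe. Over the 16 probes with a value, Pearson's r between the mean level and the log2 difference was -0.78 and Spearman's rho was -0.76. The probes share arrays and, in 9 of 10 genes, a gene, so these values describe the arrays only. For BBR against control, r was -0.73 over 19 probes, and for HCD against control it was 0.25 over 15. With marked spots kept, r over the 20 probes was -0.79 for BBR against HCD, -0.58 for BBR against control, and 0.58 for HCD against control, so the last value depended on those spots. In the 5 genes with at least 2 unmarked probes, the dimmest probe gave a higher difference between BBR and HCD than the brightest in 4, by up to 0.59 in *ela2l*. Over the 8859 such genes of the array, the dimmest probe was the higher one in 64.3%. The part of probe level in these differences was not tested.

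**Figure D4:**
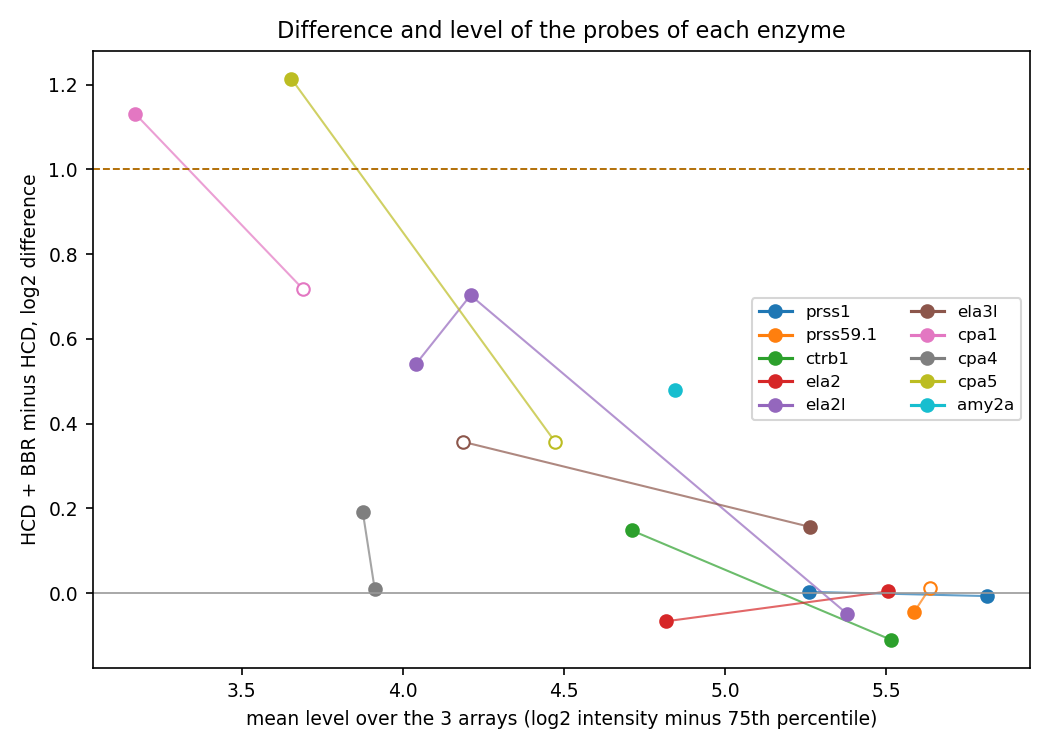
Mean level of each member probe over the 3 arrays (x axis, log2 intensity minus the 75th percentile) against the log2 difference between the HCD plus BBR and HCD arrays (y axis). Lines join the probes of a gene, open points hold a marked spot, and the dashed line is 2-fold. The 3 probes of *ela2l* run from 0.54 and 0.70 at low levels to -0.05 at the highest.

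Other genes of the exocrine pancreas were read as a list of 31 genes besides the members, of which 24 had a named probe. All 24 were well above background on all 3 arrays. Their levels summed to 263 times the 75th percentile in control, 213 in HCD, and 243 in BBR, and the members summed to 373, 322, and 346. These and the sums of the other lists include spots marked as outliers. Over the genes whose probe had no mark, the sums were 238, 199, and 223 for 22 of the other genes and 359.7, 312, and 329.6 for 9 members. Compared with control, 3 of the 22 measured genes were at least 2-fold lower in HCD and none higher, where 4.68% and 3.69% of all genes were. The median was -0.27, beside -0.16 over all genes. Compared with HCD, 1 of 23 was at least 2-fold higher in BBR and none lower, where 5.36% and 1.38% of all genes were. The median was 0.24, beside 0.11. Between BBR and control, 1 of 23 was at least 2-fold higher in BBR and none lower, where 3.95% and 1.36% of all genes were. The median was -0.08, beside -0.03. The sign for BBR against HCD was positive in 20 of 23 genes (87.0%), as it was in 15330 of the 25439 genes measured and in 6 of the 10 members. Under the other scalings, the median of the list stayed negative for HCD against control, with -0.18 under median scaling, -0.19 under quantile normalization, -0.21 under cyclic loess, and -0.13 under normexp, and it stayed positive for BBR against HCD.

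The largest of these differences was that of *zgc:92590*, which lies 3 protein-coding genes from *prss1* in the annotation. It read 2021 in control, 616 in HCD, and 3901 in BBR, so that HCD differed from control by -1.72 and BBR was 5.98-fold higher than HCD. It had a single probe. The astacin protease *c6ast3* differed from control by -1.22 in HCD and by -0.34 in BBR, but its brighter probe, marked as an outlier on the HCD array, gave -0.52 for HCD with the spot kept. The same held for *zgc:112285*, at -1.19 and, for its marked probe, -0.66. For *prss60.2*, BBR was 2.47-fold higher than control, and both probes gave a positive difference in each comparison.

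The other enzymes of the list lay nearer to the members. Trypsin gene *prss59.2*, which adjoins *prss59.1*, read 92718, 69669, and 87182 for control, HCD, and BBR. The bile salt-dependent lipases *cel.1* and *cel.2* differed from control by -0.55 and -0.76 in HCD, and BBR differed from HCD by 0.41 and 0.56. Carboxypeptidase B gene *cpb1*, which removes basic residues, gave -0.54 and 0.28 at its brightest probe and -0.24 and 0.46 at another unmarked probe. BBR differed from control by -0.26 at the first of these *cpb1* probes and by 0.22 at the other. In contrast, *ctrb.2*, which adjoins *ctrb1*, gave 0.29 and -0.17. Since the probe sequences were not used here, how far a probe of *prss59.1*, *ctrb1*, *ela2*, *ela2l*, *cpa1*, or *cpa5* also binds RNA of its neighbour is not known.

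Transcription factors of acinar cells were read as another list. It does not read acinar cells alone, since *hnf1ba* is also in the duct list. Whether the other factors were particular to acinar cells in this tissue was not tested. The counts and medians of the list therefore do not stand for acinar cells. Of 12 transcription factors with a probe, 11 were well above background on all arrays. The exception was *bhlha15*, a factor of mature acinar cells, which was not well above background on any array. The acinar factor *ptf1a* read 235 on the control array and 167 on the BBR array, or 0.12 and 0.08 times the 75th percentile. Its HCD spot was marked as an outlier. None of the 10 factors with a value for HCD against control or for BBR against HCD differed at least 2-fold, and neither did any of the 11 for BBR against control. Of all genes, 8.36%, 6.75%, and 5.31% differed at least 2-fold in these comparisons, in this order. The medians of the factors were -0.14 for HCD against control, which turned to 0.03 under cyclic loess, and -0.10 for BBR against HCD. The brightest were *xbp1*, a regulator of secretory capacity, with 0.37 and -0.04, *foxa1* with 0.15 and -0.41, and *gata6* with 0.02 and -0.16. Among 8 measured genes for signals to the pancreas and control of its enzymes, none differed at least 2-fold in any of the 3 comparisons. Of these genes, *serpina1* and *serpina1l* are also in the hepatocyte list. The medians over the 8 genes were -0.32 and 0.14, and the trypsin inhibitor gene *spink2.1* differed from control by -0.81 in HCD and -0.75 in BBR.

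Markers of other tissues were read on the same arrays. All 26 hepatocyte markers with a probe were well above background on every array. Their summed levels were 287, 287, and 312 times the 75th percentile for control, HCD, and BBR. Between 88.5% and 92.3% of all spots on an array were well above background, so this mark alone does not tell tissues apart. Over the 24 hepatocyte markers without a marked spot, the sums were 242, 234, and 255. The liver fatty acid binding protein *fabp10a* differed by -0.07 for HCD against control and 0.08 for BBR against HCD. The medians over the hepatocyte list were 0.01 and 0.08, and no marker differed at least 2-fold in either comparison. Between BBR and control, 1 of 25 markers (*c3a.1*, 2.26-fold) was at least 2-fold higher in BBR and none lower. Of all genes, 3.95% and 1.36% were. The median of the hepatocyte list in that comparison was 0.12. The intestine (26), skeletal muscle (20), skin (12), erythrocyte (9), kidney (7), duct (11), and macrophage and neutrophil (14) markers with a probe were also all well above background on every array. Of 26 endocrine pancreas markers, 25 were well above background on all arrays. The exception was *nkx6.2*, which was not well above background on the HCD array.

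Of these lists, the endocrine pancreas summed to 87.5, 72.9, and 76.5 for control, HCD, and BBR, of which *cpe* alone gave 45.6, 38.4, and 40.5. The duct list summed to 30.4, 24.6, and 30.1. HCD was lowest for these, for both sums of exocrine genes, and for the signals, skin, and kidney lists. Over genes without a marked spot, HCD was still lowest for all of these lists. It was then also lowest for hepatocytes and for skeletal muscle (413.4, 373.2, and 373.4 for 16 genes). The intestine list then summed to 153.0, 163.8, and 164.8 for 22 genes. The sums were taken under the 75th percentile only, where HCD was lowest at 47.6% of the probes well above background on all 3 arrays. The skeletal muscle list summed to 482, 439, and 436, the intestine list to 175, 186, and 182, and the erythrocyte list to 47.8, 67.0, and 62.0. Skin summed to 212, 188, and 224, kidney to 3.83, 2.95, and 4.33, and macrophages and neutrophils to 27.9, 42.8, and 46.0. The acinar transcription factors summed to 10.1, 11.3, and 10.3, with HCD highest. Of these sums *xbp1* alone gave 4.16, 5.36, and 5.21. In RNA from bulk tissue, fewer cells of a type and less RNA per cell cannot be told apart, and the part of tissue makeup in the values of the digestive enzymes was not tested. The endocrine list had medians of -0.32 for HCD against control and 0.13 for BBR against HCD (-0.01 under median scaling). Its brightest genes were *cpe*, a processing enzyme of prohormones, with -0.25 and 0.08, *neurod1* with -0.30 and -0.18, and *scg2b* with -0.35 and 0.29. The duct list shares *hnf1ba* with the acinar factors and *nkx6.1* with the endocrine list. Its medians were -0.32 and 0.29. All 11 of its genes were lower in HCD than in control, by -0.17 to -0.43, where 62.2% of all genes were lower.

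**Figure D5:**
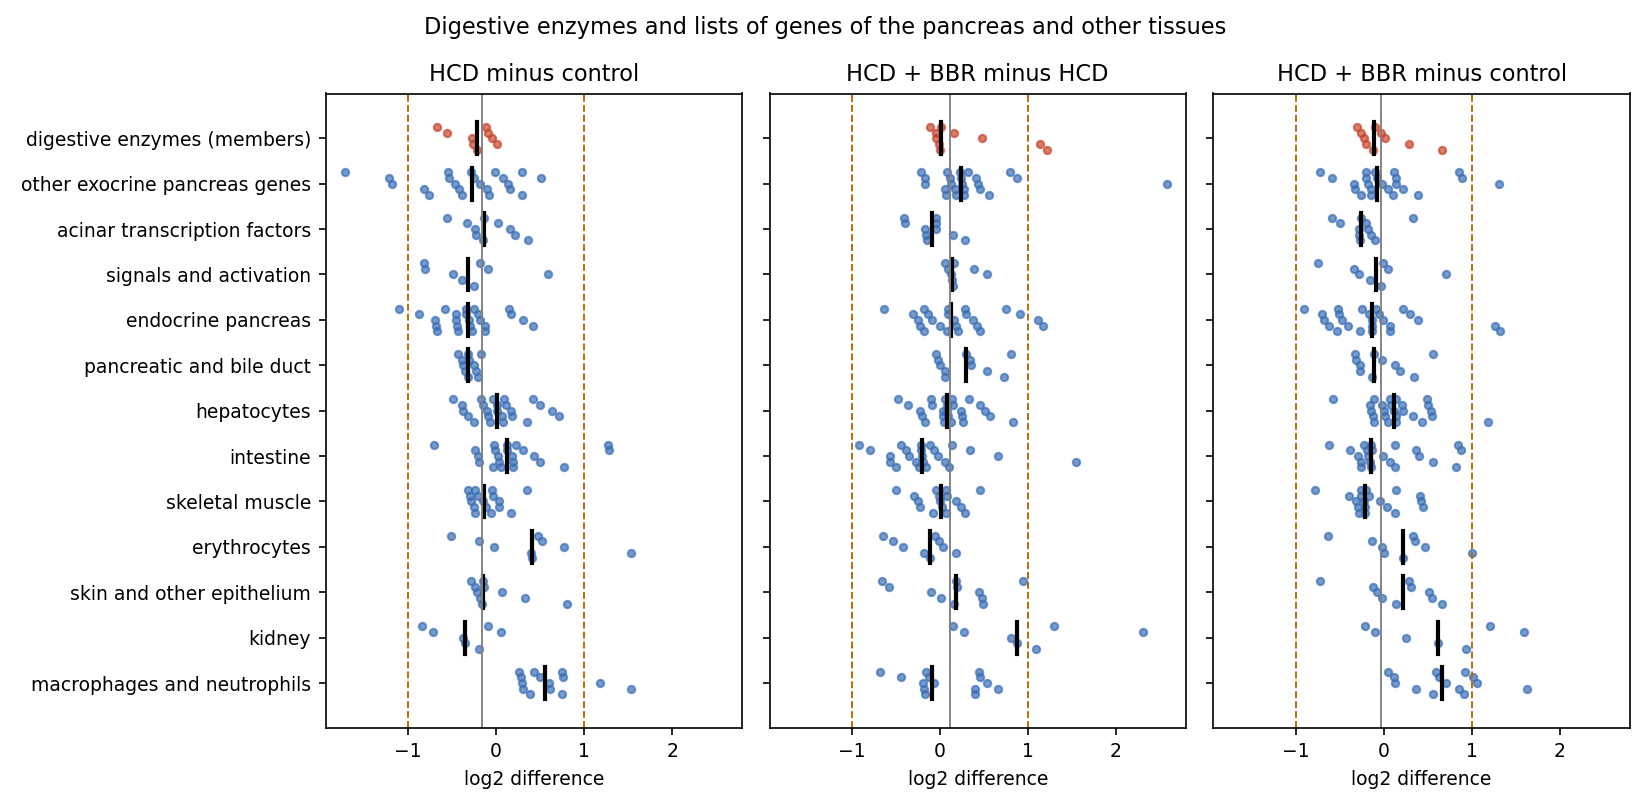
Log2 differences (x axis) of the 10 digestive enzymes and of each list (y axis) for the 3 comparisons, with 1 point per gene. Short black bars are list medians, the grey line is the median over all genes, and dashed lines mark 2-fold. The member medians of -0.22, 0.01, and -0.11 lie beside medians over all genes of -0.16, 0.11, and -0.03, and *zgc:92590* is the point at 2.58.

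The median pair of the members, -0.22 for HCD against control and 0.01 for BBR against HCD, was shared by many genes. Of 11242 other named genes that were well above background on all 3 arrays, 2448 lay within a Euclidean distance of 0.25 log2 units of it. The nearest were *zbedx*, *uchl1*, *tnni1d*, *atp2b2*, and *coq3*, at distances of 0.0054 to 0.0110. With 3 arrays this likeness rests on 2 differences only.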

How the data were processed

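Liver RNA of zebrafish larvae was measured on 3 single-colour Agilent arrays (design 26437), and groups were taken from the labels. Per the file headers, the deposited processed intensity of each spot came from Feature Extraction 11.5.1.1, with background subtracted and low values replaced; the labels name version 10.7. The deposited marks for background, outliers, and saturation (other values) were also used. The authors also deposited log2 values made in GeneSpring, which lay within 0.01 of the log2 of the processed intensity after the 75th percentile of an array was taken off at all but 14, 11, and 5 of the 43603 probes for control, HCD, and BBR.

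For the differences, control spots and outlier spots were left out (summed levels of lists keep outlier spots), copies of a probe were averaged on the log2 scale, and the 75th percentile (intensities of 2010, 2024, and 2144 for control, HCD, and BBR) was subtracted. Outlier marks removed a value from 2657 probes. Spots marked as outliers numbered 1510, 1665, and 20 for control, HCD, and BBR, and 88.5% to 92.3% of the 43803 spots were well above background. A gene was represented by its brightest probe with values on all 3 arrays, or else on both arrays compared. Where a probe was not well above background on 1 of these, the higher of its signal and the lowest signal well above background stood in. Genes were called at 2-fold, without a test. Probes were named through unversioned RefSeq accessions (13553 of 28397 matched) in a table of assembly GRCz12tu, from which only names and neighbouring genes were taken, since the array was designed on Zv9. Members and lists were chosen with earlier results of these data known. All members are named, with other exocrine genes past 2-fold, the brightest genes of lists, and the 5 genes nearest to the members. Other list genes were named after their values were seen. Scaling, the choice of a probe, and the calls were tested on simulated data, with changes larger than 2-fold and no spot left out as an outlier. The counts and medians of the members were recomputed under 13 alternatives (scaling, background, outlier spots, probe choice, filter, threshold) and under 2 more added once the data had been seen, and gene values under those that give one. List medians were recomputed under 6 of them and the order of the arrays under 5. Python 3.11.15, numpy 2.4.6, pandas 2.3.3, and limma 3.58.1 in R 4.3.3 were used.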

Additional observations from a re-analysis of the deposited data

How the results depend on the processing

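No paired analysis was possible because each group had 1 array. With 1 array of HCD on a slide of its own, no fit could hold the slide as a term, and the number of arrays limits precision. The member medians stayed negative for HCD against control under each of the 15 alternatives, from -0.22 to -0.03. Neither a change of threshold nor one of the background filter could move this median, since every member probe was well above background on all arrays. The authors' log2 values and the setting with outlier spots kept are nearly the same data, and both gave -0.19. The median over all genes was also negative under each alternative. For BBR against HCD, where the member median was 0.01, the member medians ranged from -0.13 to 0.27. The value of 0.27 came from the dimmest probe of each gene with outlier spots kept, chosen after the data were seen. This setting also gave 1 member (*cpa1*) at least 2-fold lower in HCD than in control, where 1486 of 24711 genes were. It kept both calls between BBR and HCD, which rest on the same probes, where 6.23% of all genes were at least 2-fold higher in BBR. The count of 2 members at least 2-fold higher in BBR than in HCD became 0 with outlier spots kept, 0 with the authors' log2 values, 0 at a threshold of 3-fold, 1 under median scaling (*cpa5*), 1 under normexp with quantile normalization (*cpa1*), and 1 (*cpa5*, of 9 members) where only probes well above background on all arrays were used. Of all genes, 5.29%, 5.30%, 0.97%, 3.52%, 1.15%, and 3.73% were called higher in BBR than in HCD under these 6 settings, in this order. With the threshold at 1.5-fold, 1 of 9 members passed between HCD and control (*amy2a*, lower in HCD), where 4577 of 24568 genes were lower. Between BBR and control, 1 of 10 passed (*cpa5*, higher in BBR), where 10.4% of all genes were higher. Both counts were 0 at 2-fold. Cyclic loess moved the median over all genes between HCD and control from -0.16 to -0.02 and that of the members from -0.22 to -0.05. It moved the calls among all genes from 906 higher and 1149 lower in HCD to 1319 and 497, and those between BBR and HCD from 1364 higher and 352 lower to 707 and 594. The cause of these shifts was not tested.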
